A study of Mus musculus with 90 samples.

Results

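Transcript levels of 10 circadian clock genes were followed through 90 mouse liver RNA-seq libraries. The genes were listed by symbol (Per1, Per2, Per3, Cry1, Cry2, Arntl, Clock, Nr1d1, Nr1d2 and Dbp) and found by their Entrez identifiers, and all 10 stood among the 24475 genes of both deposited count tables and passed the filter on low counts. The series holds 9 groups of 10 libraries in 2 experiments on the glucagon receptor, which raises cAMP in hepatocytes and so activates protein kinase A (PKA). Experiment 1 used short hairpin RNAs (shRNAs) delivered by AAV8, an adeno-associated virus with a strong tropism for hepatocytes. Its groups are Control, Gcgr KD (knockdown of the glucagon receptor), Gnas KD (the stimulatory G protein alpha subunit), PKA KD (no subunit is named) and Epac2 KD (a cAMP-activated exchange factor). Experiment 2 crossed knockdown of Prkar1a, a regulatory subunit that holds PKA inactive, with an antibody (mAb) against the glucagon receptor. Its groups are Control AAV + Control mAb, Control AAV + Gcgr mAb, Prkar1a KD + Control mAb and Prkar1a KD + Gcgr mAb. The labels do not say what the Control virus or the Control mAb was directed at. The sources used here do not give strain, sex, age, feeding state or the clock time at which livers were taken. Labels number the libraries of a group but do not state that they are different animals, so the tests weigh differences against the spread between libraries, part of which may be technical.

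The mammalian clock is a feedback loop of transcription and translation. ARNTL (also called BMAL1) and CLOCK bind E-boxes as a pair and switch on the Per and Cry genes, whose proteins return to block that pair. In a second loop the same pair drives Nr1d1 and Nr1d2, which encode REV-ERB alpha and beta, repressors of Arntl that compete with ROR activators at ROR elements (ROREs). Dbp, a direct target of the pair, encodes a transcription factor that binds D-boxes. In liver the transcripts of Arntl and of Dbp peak at opposite times of day, and Per1 and Per2 can also be induced by acute signals, cAMP among them, through cAMP response elements (CREs).

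Promoters of 9 of the 10 members, all but Per2 (13 promoters, since some genes have several start sites) were found in a RefSeq table on build GRCm38.p6, each running from 250 bases before to 50 bases after a start site. Those of Per1, Per3, Cry1, Cry2 and Arntl, each called in a comparison below and holding a match, are shown 5′ to 3′ on the gene's strand, with matched motifs in capitals unless stated. The first Per1 promoter, chr11:69098699-69098998 on the plus strand, holds the TGACG core of a CRE and an E-box, CACGTG, whose first base lies at -166 from the start.
Per1, first start: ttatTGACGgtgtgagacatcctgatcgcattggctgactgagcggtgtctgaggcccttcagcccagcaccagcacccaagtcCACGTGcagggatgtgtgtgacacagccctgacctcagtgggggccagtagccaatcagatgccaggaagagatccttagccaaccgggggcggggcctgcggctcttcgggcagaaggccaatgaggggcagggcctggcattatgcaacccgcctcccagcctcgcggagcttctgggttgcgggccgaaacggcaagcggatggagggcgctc
The second Per1 promoter, chr11:69099902-69100201 on the plus strand, holds a TGACG core at -132.
Per1, second start: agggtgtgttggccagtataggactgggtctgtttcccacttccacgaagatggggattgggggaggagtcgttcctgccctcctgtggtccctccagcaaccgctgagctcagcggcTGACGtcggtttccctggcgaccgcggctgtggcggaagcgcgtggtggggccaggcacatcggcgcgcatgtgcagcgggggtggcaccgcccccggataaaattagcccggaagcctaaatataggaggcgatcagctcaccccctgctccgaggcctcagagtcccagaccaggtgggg
The Per3 promoter, chr4:151044616-151044915 on the minus strand, holds a pair of D-boxes, TTATGTAA, at -205 and -158.
Per3: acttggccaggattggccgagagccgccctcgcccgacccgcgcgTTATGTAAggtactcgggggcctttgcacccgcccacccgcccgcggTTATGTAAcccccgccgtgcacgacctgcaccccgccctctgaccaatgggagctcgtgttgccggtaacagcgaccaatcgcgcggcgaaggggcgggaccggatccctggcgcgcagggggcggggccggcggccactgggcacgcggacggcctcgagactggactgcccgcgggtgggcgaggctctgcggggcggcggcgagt
The Cry1 promoter, chr10:85185005-85185304 on the minus strand, holds an E-box at -60 (a TGACG core at -8 is left in lower case).
Cry1: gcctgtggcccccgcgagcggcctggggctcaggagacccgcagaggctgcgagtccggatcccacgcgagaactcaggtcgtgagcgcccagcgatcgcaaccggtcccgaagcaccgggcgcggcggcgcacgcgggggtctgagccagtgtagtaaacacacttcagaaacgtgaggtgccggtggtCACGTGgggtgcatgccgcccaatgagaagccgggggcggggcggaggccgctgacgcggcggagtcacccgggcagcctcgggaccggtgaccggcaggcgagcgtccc
The Cry2 promoter, chr2:92434020-92434319 on the minus strand, holds the TGACG core on its opposite strand, so that it reads cgtca, at -209 (left in lower case).
Cry2: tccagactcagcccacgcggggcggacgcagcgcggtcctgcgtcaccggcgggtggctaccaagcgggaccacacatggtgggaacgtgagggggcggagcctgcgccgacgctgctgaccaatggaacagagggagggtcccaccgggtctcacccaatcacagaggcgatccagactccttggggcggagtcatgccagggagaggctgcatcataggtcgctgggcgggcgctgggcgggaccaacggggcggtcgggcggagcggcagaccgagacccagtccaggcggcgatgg
An Arntl promoter, chr7:113207261-113207560 on the plus strand, holds a RORE, AAAGTAGGTCA, at 26 bases past the start.
Arntl: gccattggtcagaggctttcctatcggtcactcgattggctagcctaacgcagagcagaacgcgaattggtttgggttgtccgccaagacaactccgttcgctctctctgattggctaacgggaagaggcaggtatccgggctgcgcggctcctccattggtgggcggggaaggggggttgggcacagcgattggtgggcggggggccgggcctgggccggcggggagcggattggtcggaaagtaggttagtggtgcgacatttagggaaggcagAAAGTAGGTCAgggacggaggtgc
Both strands were searched. Among 32851 promoters of the same length, 7.15% held CACGTG, 6% held the D-box TTANNTAA, 20.8% held TGACG, 1.79% held the whole CRE, TGACGTCA, which contains that core, and 0.384% held the RORE. The whole CRE was in 0 of the 13 member promoters and the core in 4, of Per1, Cry1 and Cry2. CACGTG was in 2 of the 13, the D-box in 1 and the RORE in 1. The promoters of Clock, Nr1d1, Nr1d2 and Dbp held none of these motifs. A match is a description of these letters and not evidence of binding.

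Levels are given as CPM, the count of a gene scaled to a common library total after trimmed-mean (TMM) normalization. Changes are log2 fold changes ± SE between groups of 10 from edgeR's quasi-likelihood test, called at a Benjamini-Hochberg adjusted p under 0.05 over all tested genes (13574 in experiment 1 and 12847 in experiment 2). Libraries held 20813044 to 33709476 counts in experiment 1 and 8870311 to 19481392 counts in experiment 2, and the lowest count of any member in a library was 11 (Dbp, experiment 2). The targeted transcripts were lower in every library of their knockdown group than in every control library, for example Prkaca at 7.34 to 23.4 CPM with PKA KD against 85.6 to 107 CPM, and Prkar1a at 28.6 to 35.1 CPM with Prkar1a KD + Control mAb against 97.8 to 135 CPM. Hepatocyte markers (6 of 7 in the tables, none at 0) summed to 76800 to 87200 CPM in Control AAV + Control mAb, 65900 to 88500 CPM in Control AAV + Gcgr mAb, 31400 to 46100 CPM in Prkar1a KD + Control mAb and 27300 to 57400 CPM in Prkar1a KD + Gcgr mAb. The 2 libraries farthest along the first principal component of deviations from group means were replicate 2 of Control AAV + Gcgr mAb and replicate 10 of Control AAV + Control mAb, and replicate 2 of Prkar1a KD + Gcgr mAb had the lowest total. Without these 3 libraries every count of called members stated below for experiment 2 kept its size within 1.5 times. In bulk liver, fewer cells of a type, less RNA per cell and lower levels of the marker transcripts themselves cannot be told apart.

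Clock genes varied widely between libraries of the same group, and they varied together. In the experiment 1 Control group alone, Dbp ran from 12.7 to 96.7 CPM (median 31.5), a 7.64-fold range, and Arntl ran from 3.85 to 18.1 CPM (median 14.2). The SD of log2 CPM around group means was 1.32 for Dbp and 1.02 for Per3 in experiment 1, above that of 99.2% and 98.4% of tested genes, and it was 1.65 and 1.22 in experiment 2, above 99.7% and 99.3%. Cry2 and Clock varied least among the members, with SDs of 0.288 and 0.298 in experiment 1 and 0.339 and 0.353 in experiment 2, against a median over all genes of 0.239 and 0.236.

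Deviations from the group mean were related to those of Arntl, most closely for Dbp and Per3 in experiment 1 and for Per3 and Clock in experiment 2. Over the 50 libraries of experiment 1, Pearson's r with Arntl was -0.927 for Dbp (Spearman's rho -0.963), -0.921 for Per3 (rho -0.937), -0.819 for Nr1d2 (rho -0.899) and -0.803 for Per2 (rho -0.792). Cry1 (r 0.858, rho 0.87) and Clock (r 0.821, rho 0.717) went with Arntl. The weaker relations were those of Nr1d1 (r -0.685, rho -0.754), Per1 (r -0.662, rho -0.612) and Cry2 (r -0.543, rho -0.603). In the 40 libraries of experiment 2 every sign was the same, with r of -0.908 for Per3, -0.858 for Dbp, -0.819 for Per2, -0.752 for Cry2, -0.743 for Nr1d2, -0.612 for Per1 and -0.424 for Nr1d1 against 0.9 for Clock and 0.825 for Cry1. Spearman's rho there was -0.93 for Per3, -0.888 for Dbp, -0.8 for Per2, -0.786 for Cry2, -0.797 for Nr1d2, -0.587 for Per1, -0.443 for Nr1d1, 0.904 for Clock and 0.811 for Cry1.

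All 18 relations passed a two-sided permutation test within groups (100000 resamples, Benjamini-Hochberg adjusted over the 18), with adjusted p of 0.00767 for Nr1d1 in experiment 2, 0.000169 for Cry2 in experiment 1 and 7.87e-05 for Per1 in experiment 2. The other 15 had a raw p of 1e-05, the smallest these permutations can give, and an adjusted p of 1.2e-05. The adjusted p for rho was at most 0.0035. Leaving out the 2 libraries farthest from the median of Arntl gave r of -0.927 for Dbp in experiment 1 and -0.865 in experiment 2, and no sign changed for any member. Within single groups of 10, r between Dbp and Arntl lay between -0.962 and -0.896 in experiment 1 and between -0.966 and -0.881 in experiment 2, whereas that of Nr1d1 reached 0.0252 in a group of experiment 2. Members compared in this way share each library's scaling, and across all tested genes 2.9% and 4% had an r over 0.5 with Arntl and 2.06% and 2.83% an r under -0.5.

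**Figure D1:**
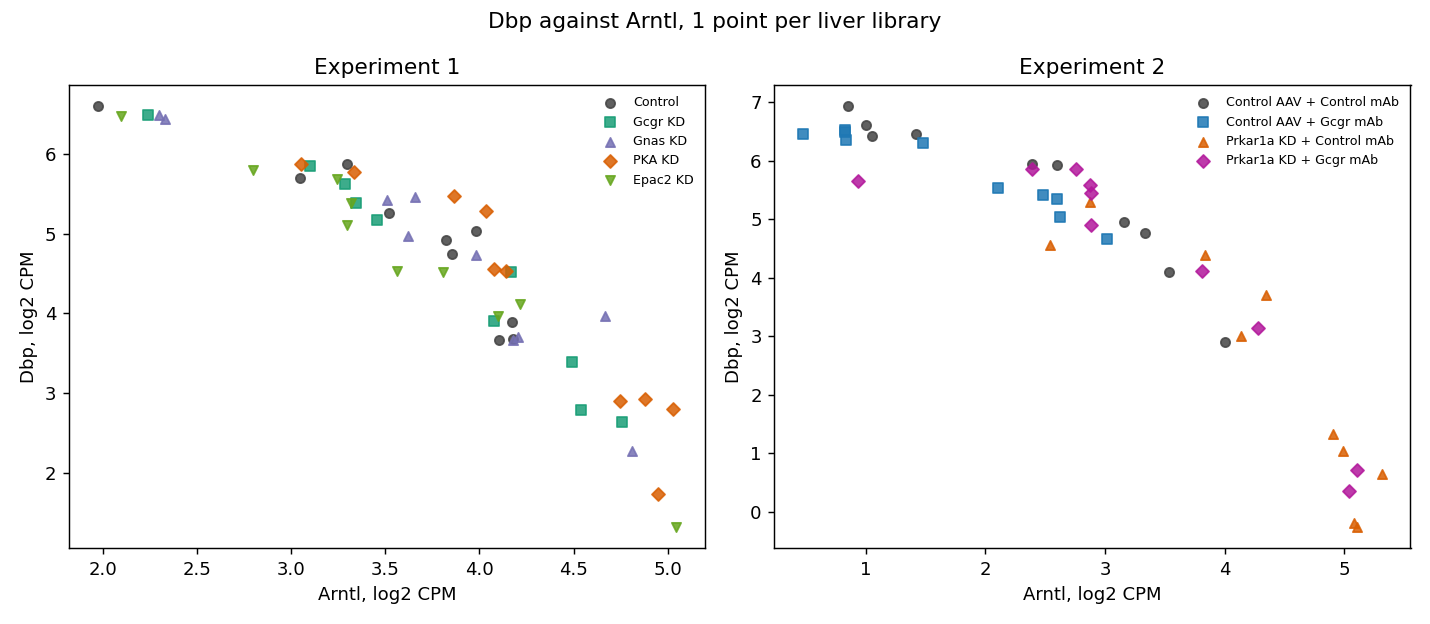
Dbp against Arntl, both in log2 CPM, with 1 point per liver library coloured by group, for experiment 1 (left, 50 libraries) and experiment 2 (right, 40 libraries). Libraries of each group spread along the falling band, and those of Prkar1a KD + Control mAb reach its lower right end, at 0.707 CPM of Dbp.

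Outside the 10 members, the genes whose deviations were most like those of Arntl in experiment 1 were Slc30a10 (r 0.934, and 0.861 in experiment 2), Clpx (0.925 and 0.939), Npas2 (0.906 and 0.877), Chka (0.904 and 0.896) and Nfil3 (0.893 and 0.807). Npas2 encodes a paralog of CLOCK that pairs with ARNTL, and Nfil3 a repressor that binds D-boxes. The genes most opposed to Arntl were Usp2 (-0.96 and -0.931), a deubiquitinase with rhythmic transcripts, Tef (-0.879 and -0.865), a relative of Dbp, Pnpla2 (-0.822 and -0.738), a triglyceride lipase, Wee1 (-0.821 and -0.909), a cell cycle kinase, and Clmn (-0.808 and -0.666). These r values describe 50 and 40 libraries and were not tested, since the genes were picked for them in experiment 1.

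The question of experiment 2 for these genes is what lowering Prkar1a, which frees PKA, did to them with and without the receptor antibody. With the Control mAb, Prkar1a KD changed 8 of the 10 clock genes: Arntl, Clock and Cry1 rose, and Per2, Per3, Cry2, Nr1d1 and Dbp fell. The same comparison called 56.2% of all tested genes, so the share of members stands beside a high background. The summed hepatocyte markers given above did not overlap between these groups. Erythroid markers (3 of 4 above 1 CPM) summed to 47.8 to 439 CPM with the knockdown against 399 to 1110 CPM. Adipocyte markers (4 in the table) summed to at most 0.887 CPM against 1.7 to 16.3 CPM. Of these 4, 3 had a median of 0 with the knockdown, and 1 had a median above 1 CPM in the controls. Median sums with the knockdown and in the controls were 163 and 124 CPM for Kupffer cell and macrophage markers. They were 99.1 and 113 CPM for endothelial markers and 299 and 350 CPM for stellate cell markers. For cholangiocyte markers they were 26.7 and 44.3 CPM, and for pancreatic acinar markers 4.47 and 12.1 CPM. Lymphocyte markers stood at 3.13 and 3.19 CPM and neutrophil markers at 3.28 and 1.28 CPM. The part of all these markers in the result was not tested.

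Among the activators, Arntl (Entrez gene 11865, chromosome 7, 113178471 to 113314126) ran from 1.68 to 15.9 CPM (median 5.52) in Control AAV + Control mAb and from 5.7 to 39.6 CPM (median 25.1) in Prkar1a KD + Control mAb. The groups overlapped, and all 10 knockdown libraries lay above the control median. The change was 1.84 ± 0.46 (adjusted p = 0.000899). Clock (Entrez gene 12753, chromosome 5, 76209868 to 76305603) ran from 29.6 to 73.8 CPM (median 47.5) in the controls and from 43.2 to 81.2 CPM (median 70.8) with the knockdown. It changed by 0.45 ± 0.15 (adjusted p = 0.00986), with 9 of 10 knockdown libraries above the control median.

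Among the Per genes, which encode the repressors that pair with CRY proteins, Per2 (Entrez gene 18627, chromosome 1, 91415977 to 91459351) gave the clearest separation. It ran from 13.9 to 36.6 CPM (median 17.7) in the controls and from 3.62 to 9.2 CPM (median 5.71) with Prkar1a KD + Control mAb. Per2 was the 1 member of 10 whose groups did not overlap, a share below the 15.1% of all genes. Its change was -1.80 ± 0.24 (adjusted p = 6.13e-08). Per3 (Entrez gene 18628, chromosome 4, 150997018 to 151044707) ran from 3.65 to 69.1 CPM (median 17.5) in the controls and from 0.835 to 14.5 CPM (median 2.48) with the knockdown, an overlap of wide ranges. It changed by -2.42 ± 0.53 (adjusted p = 0.000177). Per1 (Entrez gene 18626, chromosome 11, 69095108 to 69109965) went the other way in value, from 2.47 to 21 CPM (median 7.79) in the controls and from 9.1 to 29.2 CPM (median 13.2) with the knockdown. All 10 knockdown libraries were above the control median, but its value of 0.78 ± 0.36 did not pass (adjusted p = 0.0641). Limma-voom called it (0.98, adjusted p = 0.0275), as did edgeR without the libraries numbered 4 (1, adjusted p = 0.0247).

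Of the cryptochrome genes, which encode the main repressors of ARNTL and CLOCK, Cry1 rose and Cry2 fell. Cry1 (Entrez gene 12952, chromosome 10, 85131700 to 85185054) ran from 3.76 to 11.8 CPM (median 5.6) in the controls and from 3.43 to 19.8 CPM (median 12.1) with Prkar1a KD + Control mAb, which also had the lowest value of that pair of groups. The change was 0.85 ± 0.27 (adjusted p = 0.00689). Cry2 (Entrez gene 12953, chromosome 2, 92403646 to 92434085) ran from 18.2 to 44.7 CPM (median 28.3) in the controls and from 14.3 to 29.6 CPM (median 24.2) with the knockdown. Its change of -0.38 ± 0.14 (adjusted p = 0.0222) was no longer called without the libraries numbered 8 (-0.28, adjusted p = 0.0848) or those numbered 9 (-0.31, adjusted p = 0.0801).

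In the second loop, the REV-ERB genes differed from each other in value. Nr1d1 (Entrez gene 217166, chromosome 11, 98767932 to 98775377) ran from 33 to 93.1 CPM (median 75.3) in the controls and from 10.2 to 59.8 CPM (median 46.3) with Prkar1a KD + Control mAb. None of the 10 knockdown libraries lay above the control median, and the change was -0.77 ± 0.25 (adjusted p = 0.00826). Nr1d2 (Entrez gene 353187, chromosome 14, 18204056 to 18239106) ran from 58.1 to 150 CPM (median 88.2) in the controls and from 52.2 to 130 CPM (median 92.7) with the knockdown. Those groups overlapped almost wholly, at -0.04 ± 0.17 (adjusted p = 0.87, 95% interval -0.38 to 0.3). Dbp (Entrez gene 13170, chromosome 7, 45705100 to 45710203), the output factor, ran from 7.3 to 122 CPM (median 60.6) in the controls and from 0.707 to 38.9 CPM (median 5.13) with the knockdown, a 55-fold range within 1 group. Its change was -2.41 ± 0.62 (adjusted p = 0.00116), with 0 of 10 knockdown libraries above the control median.

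**Figure D2:**
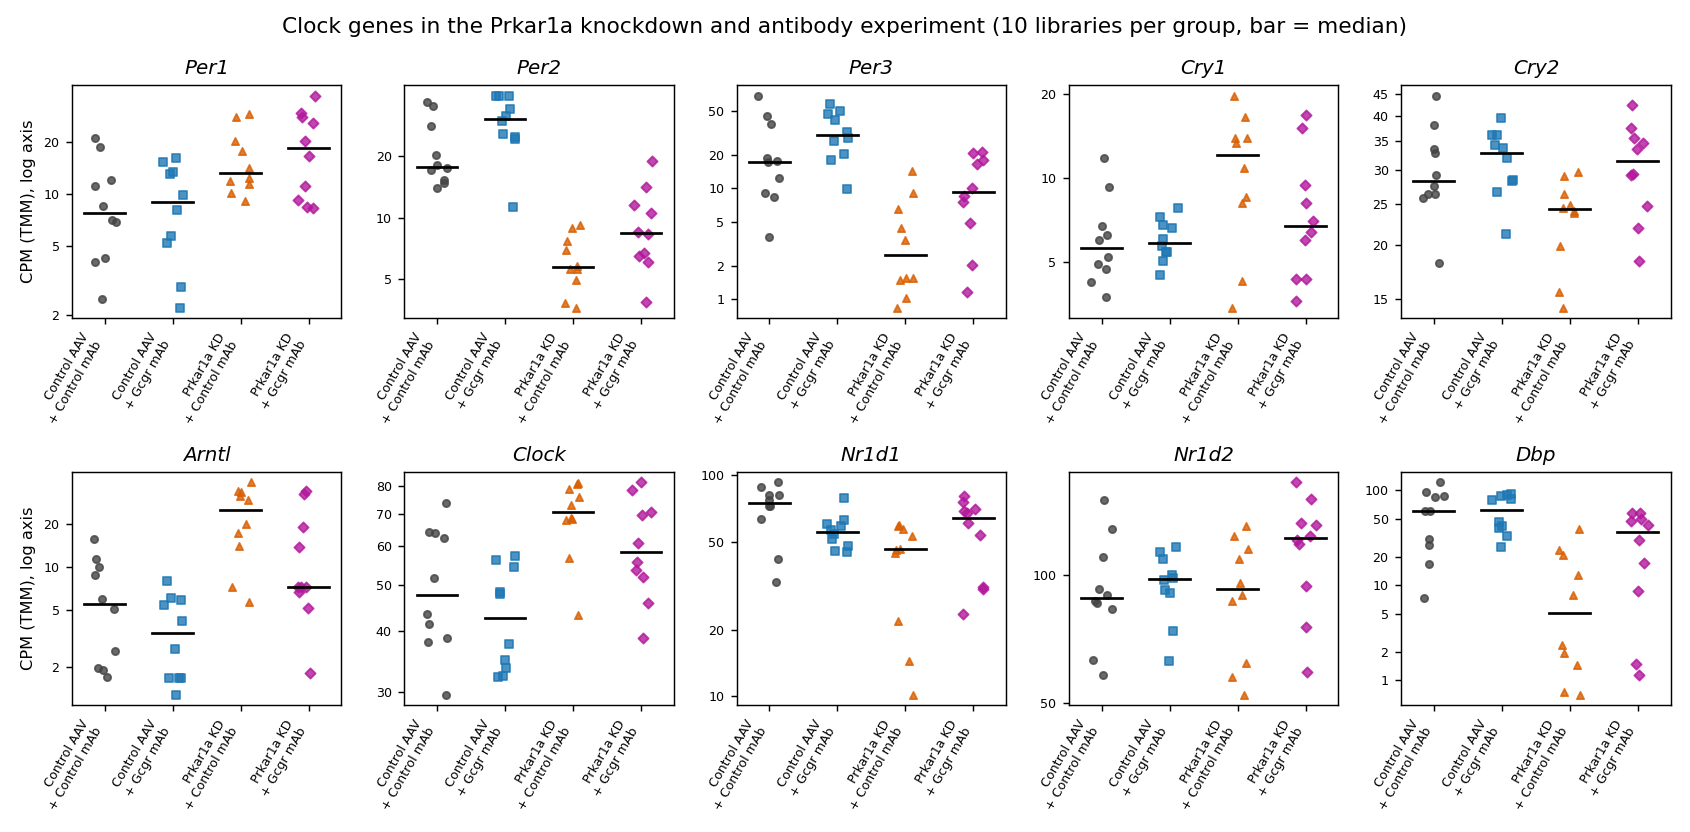
CPM on a log axis of each clock gene in the 4 groups of experiment 2; points are libraries (10 per group) and bars are medians. Per2 is lower in all 10 libraries of Prkar1a KD + Control mAb than in any control library, while the other members overlap between these groups.

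With the Gcgr mAb in both arms, Prkar1a KD called 5 of the 10 clock genes, a share near the 53.1% called over all genes. Per1, Arntl and Clock rose, and Per2 and Per3 fell. Per1 ran from 2.19 to 16.1 CPM (median 8.96) in Control AAV + Gcgr mAb and from 8.27 to 37.2 CPM (median 18.6) in Prkar1a KD + Gcgr mAb. It changed by 1.09 ± 0.36 (adjusted p = 0.0108). Per2 ran from 11.2 to 39.5 CPM (median 30.5) and from 3.86 to 18.9 CPM (median 8.41) in the same groups, which overlapped through 1 control library at 11.2 CPM (replicate 2, the library farthest from its group above), the next control being at 24.1 CPM. Its change was -1.64 ± 0.24 (adjusted p = 2.76e-07). Arntl ran from 1.27 to 7.98 CPM (median 3.42) and from 1.79 to 34.4 CPM (median 7.24), a change of 1.81 ± 0.48 (adjusted p = 0.00179).

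The remaining calls were Per3, at -1.57 ± 0.49 (adjusted p = 0.00739), and Clock, at 0.48 ± 0.15 (adjusted p = 0.00734). Per3 ran from 9.91 to 58.5 CPM (median 30.4) with the antibody alone and from 1.15 to 21.4 CPM (median 9.32) with both. Dbp fell outside the call at -0.96 ± 0.58 (adjusted p = 0.166, 95% interval -2.11 to 0.18), although 0 of 10 knockdown libraries exceeded the control median, and limma-voom called it at -1.68 (adjusted p = 0.0282). It ran from 25.3 to 92.1 CPM (median 62.6) and from 1.15 to 58 CPM (median 36.6), so the knockdown group held both near-control and very low libraries. Nr1d1 stood at 0.00 ± 0.25, Cry2 at -0.04 ± 0.14, Nr1d2 at 0.30 ± 0.17 and Cry1 at 0.42 ± 0.27, none of which passed. Nr1d2 was called without the libraries numbered 1 (0.40, adjusted p = 0.0474).

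Set against the group with neither treatment, Prkar1a KD + Gcgr mAb called 2 of the 10 members, a share below the 50.2% of all genes. Per1 rose by 1.03 ± 0.36 (adjusted p = 0.0167) and Per2 fell, at -1.18 ± 0.24 (adjusted p = 7.24e-05). The Per1 call was lost without the libraries numbered 5 (0.86, adjusted p = 0.0533) or 7 (0.84, adjusted p = 0.072). Arntl stood at 1.06 ± 0.46 (adjusted p = 0.055) and Per3 at -1.10 ± 0.49 (adjusted p = 0.0613), and DESeq2 called both, with adjusted p of 0.0463 and 0.0497. In edgeR, Arntl was called without the libraries numbered 5 (1.24, adjusted p = 0.0408) or 7 (1.27, adjusted p = 0.0263), and Per3 without those numbered 6 (-1.29, adjusted p = 0.0473) or 7 (-1.36, adjusted p = 0.0307). This comparison and the preceding ones share libraries, so their values stand side by side and were not counted as separate support.

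The antibody by itself called 0 members in edgeR, DESeq2 and limma-voom. In Control AAV livers 8.19% of all genes were called, and Per2 came nearest among the clock genes, at 0.47 ± 0.23 (unadjusted p = 0.047, adjusted p = 0.206). Per2 medians were 17.7 CPM without and 30.5 CPM with the antibody, and the groups overlapped. Arntl stood at -0.75 ± 0.49 (95% interval -1.71 to 0.21) and Dbp at 0.05 ± 0.57 (95% interval -1.08 to 1.17). Within those limits a fall of Arntl, or a change of Dbp in either direction, was not excluded.

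Under Prkar1a KD the antibody called 0 members and 0 genes of 12847 in edgeR, and DESeq2 and limma-voom also called 0. In edgeR 846 of the 12847 genes had an unadjusted p under 0.05. Among the members Cry2 came nearest, at 0.40 ± 0.14 (unadjusted p = 0.00763, adjusted p = 0.641). Per2 (0.62 ± 0.25), Per3 and Dbp had unadjusted p of 0.0154, 0.0166 and 0.0191, and the other members were above 0.05. Medians of Dbp there were 5.13 CPM without and 36.6 CPM with the antibody, at 1.5 ± 0.61 (adjusted p = 0.641). Those of Per3 were 2.48 and 9.32 CPM, at 1.32 ± 0.53 (adjusted p = 0.641), and those of Arntl were 25.1 and 7.24 CPM, at -0.78 ± 0.44 (adjusted p = 0.809). Group medians of these genes therefore lay far apart while the libraries overlapped. The interaction of knockdown and antibody called 0 members (4.08% of all genes), DESeq2 and limma-voom called 0 as well, and the member with the smallest p was Nr1d1, at 0.78 ± 0.35 (unadjusted p = 0.0332, adjusted p = 0.199). Whether Per1, Cry1, Cry2, Nr1d1 and Dbp, called with 1 antibody and not the other, responded differently was thus not shown.

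Since most clock genes varied with Arntl between libraries of a group, the same contrasts were fitted again with the log2 CPM of Arntl, or that of Dbp, as a covariate, a choice made after seeing the data. These covariates are themselves clock genes that changed with Prkar1a KD, so the fits describe the other members at a given level of Arntl or Dbp and do not separate treatment from that shared variation. Each fit gave a member 1 slope on the covariate for all groups of an experiment, and whether slopes differed was not tested. Within single groups of experiment 2, r with Arntl ran from 0.332 to 0.988 for Cry1 and from -0.644 to 0.0252 for Nr1d1. Of the 9 members left, Prkar1a KD with the Control mAb then called 3 with either covariate. That share was below the 47.9% of all genes with Arntl and 45.3% with Dbp. Per1 rose, by 1.70 ± 0.36 at a given Arntl (adjusted p = 0.000149) and 1.54 ± 0.41 at a given Dbp (adjusted p = 0.00234). Per2 stayed lower, at -0.99 ± 0.16 (adjusted p = 2.53e-06) and -1.05 ± 0.22 (adjusted p = 0.00012). Nr1d2, which did not differ before, was higher by 0.50 ± 0.14 (adjusted p = 0.00316) and 0.58 ± 0.13 (adjusted p = 2e-04).

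The other members lost their calls in those fits. At a given Arntl, Per3 stood at -0.48 ± 0.27, Dbp at -0.44 ± 0.39, Nr1d1 at -0.35 ± 0.28, Cry1 at -0.14 ± 0.19, Clock at -0.09 ± 0.082 and Cry2 at 0.09 ± 0.12, and at a given Dbp, Arntl stood at 0.22 ± 0.27. With the Gcgr mAb in both arms the covariate fits again put Per1 higher (1.77 ± 0.33 at a given Arntl, 1.43 ± 0.34 at a given Dbp), Per2 lower (-1.07 ± 0.15 and -1.30 ± 0.18) and Nr1d2 higher (0.69 ± 0.13 and 0.59 ± 0.11), and all 6 values passed (46.8% and 49.3% of all genes called). Cry2 also rose in both of these fits (0.31 ± 0.11 and 0.22 ± 0.088), Cry1 fell at a given Arntl (-0.49 ± 0.18), and at a given Dbp Per3 fell (-0.69 ± 0.19) and Arntl rose (0.65 ± 0.26). Clock lost its call in both fits (0.03 ± 0.077, adjusted p = 0.817, and 0.21 ± 0.11, adjusted p = 0.108), and Per3 lost its call at a given Arntl (-0.26 ± 0.24, adjusted p = 0.398). Per1 and Per2, both opposed to Arntl within groups, thus differed from the controls in opposite directions.

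**Figure D3:**
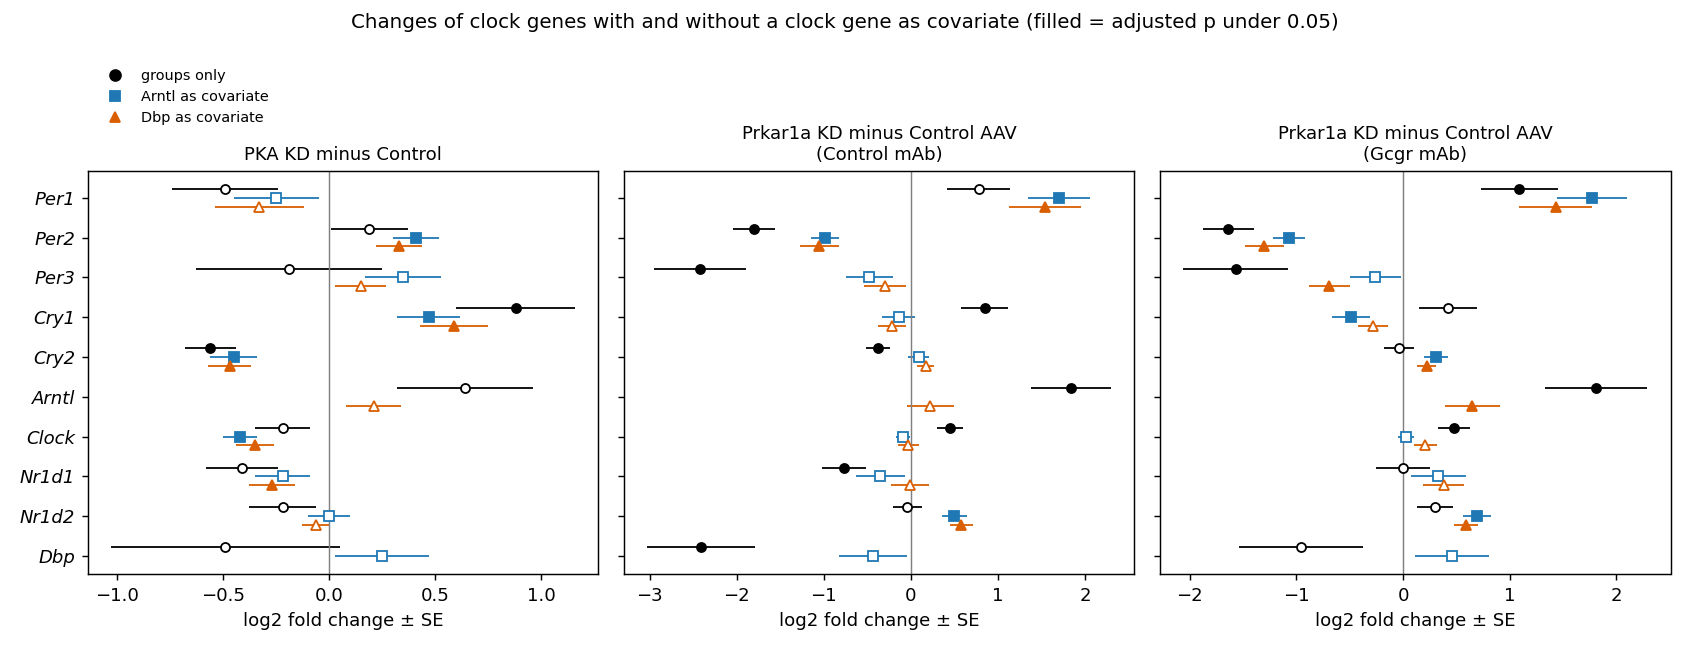
Log2 fold change ± SE of each clock gene for PKA KD and for Prkar1a KD with either antibody, from the groups alone (black circles) and with Arntl (blue squares) or Dbp (orange triangles) as covariate; filled symbols passed an adjusted p of 0.05. With Prkar1a KD, Per1 lies to the right and Per2 to the left of 0 in every fit. Arntl, Per3 and, with the Control mAb, Dbp move toward 0 once a covariate is added. With the Gcgr mAb, Dbp passes 0, from -0.96 to 0.46 at a given Arntl.

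**Figure D4:**
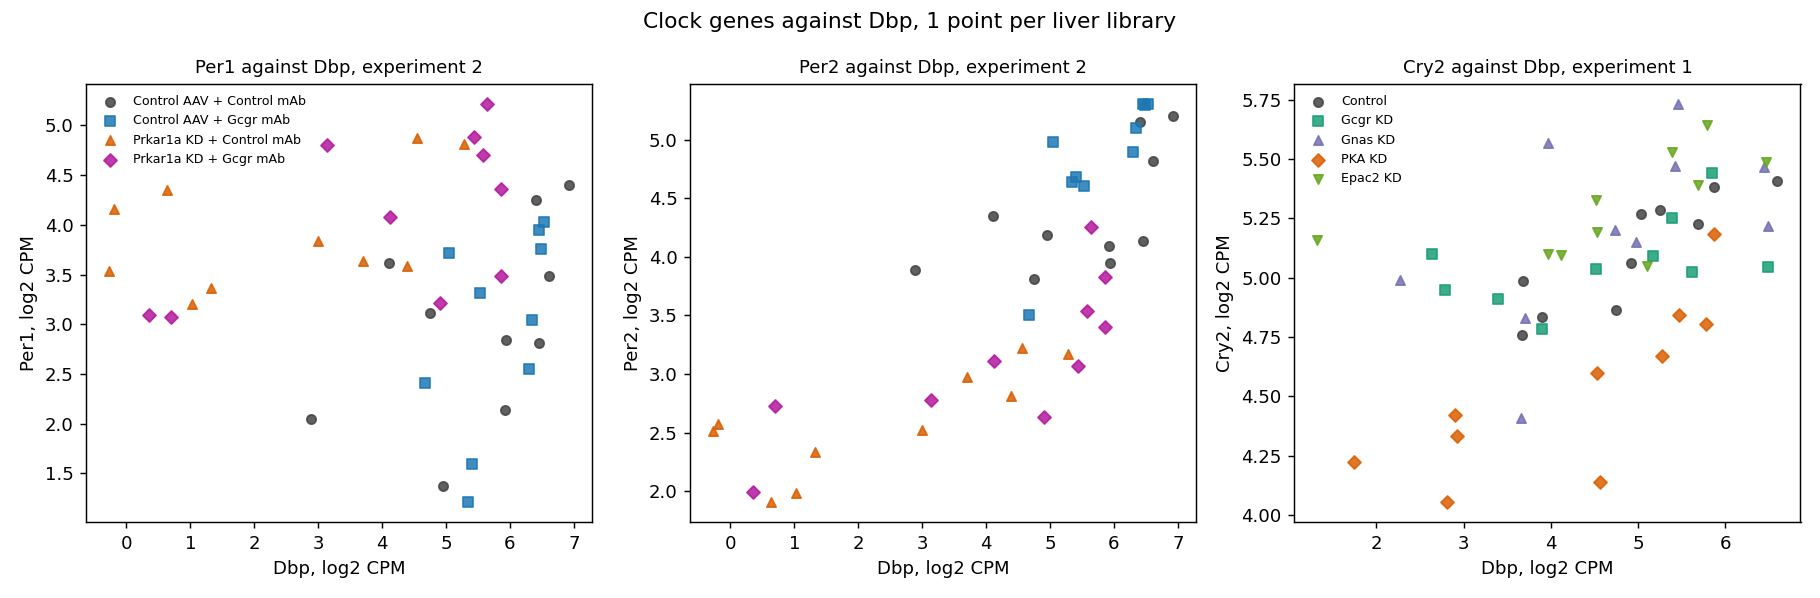
Per1 (left) and Per2 (middle) against Dbp in experiment 2 and Cry2 against Dbp in experiment 1 (right), all in log2 CPM, with 1 point per library. Prkar1a KD libraries lie mostly above the controls for Per1 and below them for Per2 at like levels of Dbp, and PKA KD libraries lie mostly below the other groups for Cry2.

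Experiment 1 asked what lowering the receptor, its G protein, PKA or Epac2 did. In edgeR, PKA KD called the cryptochrome genes and no other member. Cry1 rose and Cry2 fell (2 of 10, below the 32.4% of all genes called). Cry1 ran from 2.79 to 9.85 CPM (median 7.16) in Control and from 8.23 to 19.1 CPM (median 11.8) in PKA KD. All 10 knockdown libraries lay above the control median, and the change was 0.88 ± 0.28 (adjusted p = 0.0128). Cry2 ran from 27 to 42.3 CPM (median 35.3) in Control and from 16.5 to 36.3 CPM (median 22.8) in PKA KD, where 1 of 10 libraries exceeded the control median. Its change was -0.56 ± 0.12 (adjusted p = 0.000364). Hepatocyte markers summed to 75200 to 104000 CPM in PKA KD against 87800 to 119000 CPM in Control, and adipocyte markers to 0.272 to 6.06 CPM against 2 to 29.7 CPM. Of the 4 adipocyte markers, 3 had a median of 0 in Control, and 0 had a median above 1 CPM in PKA KD. The part of these markers in the result was not tested.

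Other members stood near the threshold or far from it. Nr1d1 ran from 93.8 to 197 CPM (median 142) in Control and from 51.5 to 162 CPM (median 116) in PKA KD, at -0.41 ± 0.17 (adjusted p = 0.0572). DESeq2 and limma-voom called it, with adjusted p of 0.0444 and 0.0364, and edgeR did without the libraries numbered 3 (-0.47, adjusted p = 0.043), 6 (-0.49, adjusted p = 0.0406) or 8 (-0.50, adjusted p = 0.0269). Without those numbered 6, Per1 was called too (-0.69, adjusted p = 0.0494) and the number of called members was 4. Arntl stood at 0.64 ± 0.32 (adjusted p = 0.134), Per1 at -0.49 ± 0.25 (adjusted p = 0.146), Clock at -0.22 ± 0.13 (adjusted p = 0.197) and Nr1d2 at -0.22 ± 0.16 (adjusted p = 0.335). Per2 stood at 0.19 ± 0.18. Per3, at -0.19 ± 0.44, and Dbp, at -0.49 ± 0.54, had wide intervals, that of Dbp from -1.54 to 0.56.

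**Figure D5:**
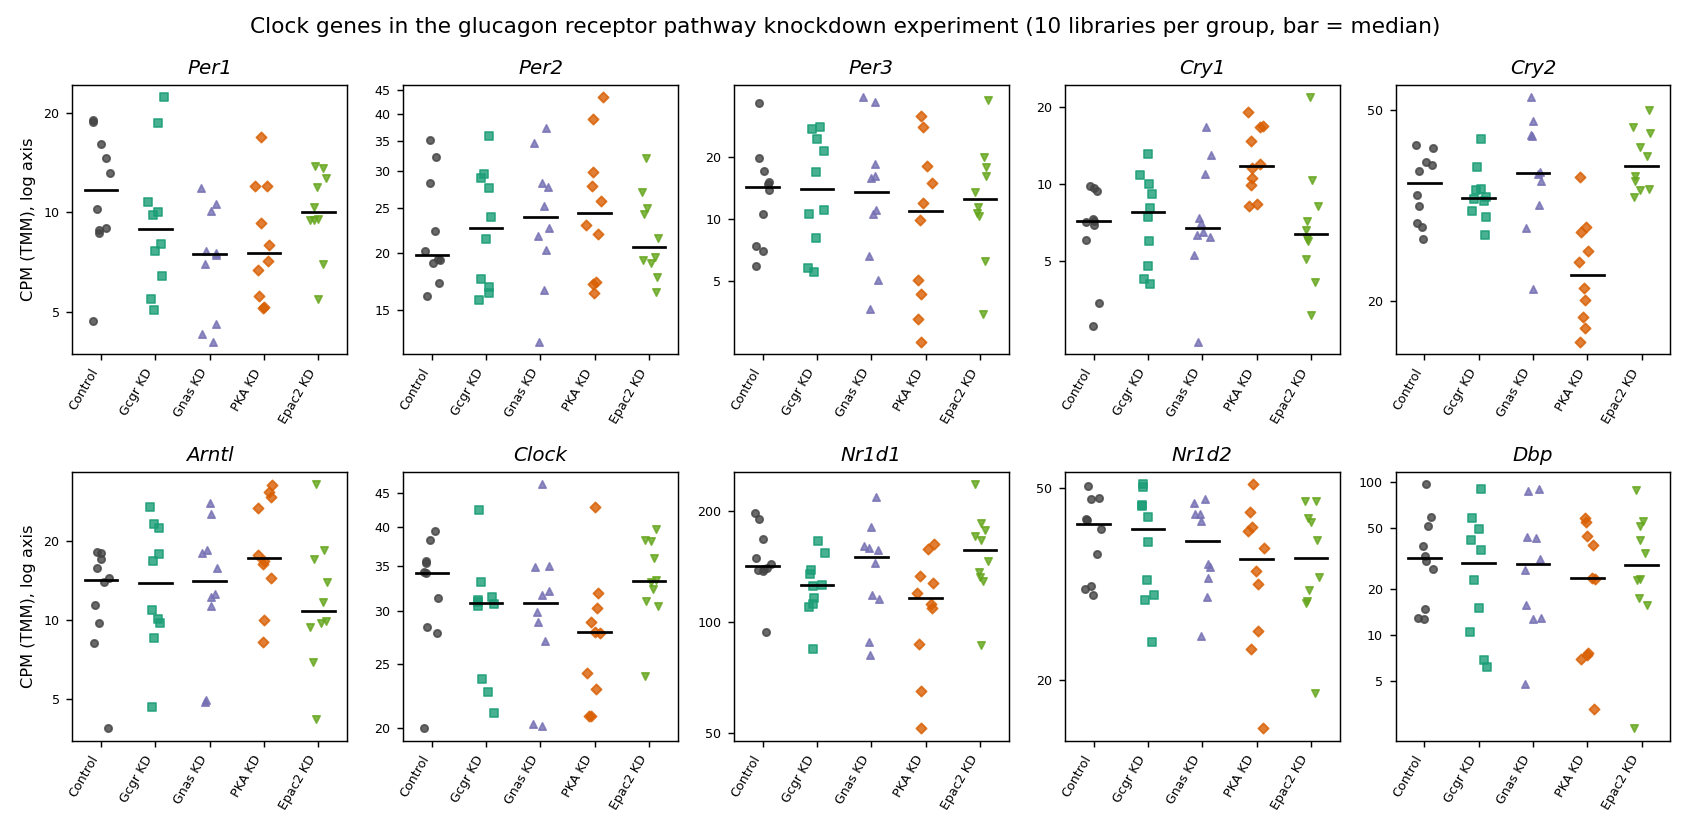
CPM on a log axis of each clock gene in the 5 groups of experiment 1; points are libraries (10 per group) and bars are medians. Cry2 in PKA KD (median 22.8 CPM) and Cry1 in PKA KD (median 11.8 CPM) stand apart from the other groups' medians, while the ranges of Dbp and Per3 are wide and overlap between all groups.

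Against the other knockdowns, Cry2 was lower in PKA KD throughout. Its median was 32.8 CPM with Gcgr KD, 36.9 CPM with Gnas KD and 38.3 CPM with Epac2 KD, and the changes of PKA KD against these were -0.51 ± 0.12 (adjusted p = 0.00132), -0.68 ± 0.12 (adjusted p = 2.23e-05) and -0.74 ± 0.13 (adjusted p = 3.54e-06). Those comparisons called 2, 1 and 3 members, each a lower share than the 31.7%, 34% and 35.7% of all genes called. They share the PKA KD libraries. Cry1 medians were 7.76, 6.77 and 6.37 CPM, and its changes were 0.72 ± 0.28 (adjusted p = 0.0424), 0.65 ± 0.28 (adjusted p = 0.0674) and 0.70 ± 0.28 (adjusted p = 0.045).

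These Cry1 calls were less stable than those of Cry2. Against Gcgr KD the call was lost without the libraries numbered 1, 4, 6, 7, 8, 9 or 10, with values of 0.62 to 0.79 over all 10 omissions and adjusted p up to 0.0992. Against Epac2 KD it was lost in 9 of 10 omissions, all but that of the libraries numbered 2, with values of 0.58 to 1.04 and adjusted p up to 0.111. Against Gnas KD it was gained without those numbered 2 (adjusted p = 0.0403), 4 (adjusted p = 0.0497) or 5 (adjusted p = 0.029). Nr1d1 also fell against Epac2 KD, at -0.48 ± 0.17 (adjusted p = 0.0231), and was not called without those numbered 1 (-0.43), 4 (-0.43) or 10 (-0.42). In the same comparison Arntl was called without those numbered 2 (0.88, adjusted p = 0.0433) and Clock without those numbered 3 (-0.34, adjusted p = 0.0319) or 4 (-0.33, adjusted p = 0.0323).

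With Arntl as covariate PKA KD called 4 of the 9 members left (33% of all genes): Per2, at 0.41 ± 0.11 (adjusted p = 0.0035), and Cry1, at 0.47 ± 0.15 (adjusted p = 0.00944), were higher, and Cry2, at -0.45 ± 0.11 (adjusted p = 0.00103), and Clock, at -0.42 ± 0.08 (adjusted p = 3.19e-05), were lower. With Dbp as covariate (33.1% of all genes) these were 0.33 ± 0.11, 0.59 ± 0.16, -0.47 ± 0.1 and -0.35 ± 0.091, and Nr1d1 was lower too, at -0.27 ± 0.11 (adjusted p = 0.0403). Cry1 and Cry2 thus kept their calls at a given level of either gene. Prkar1a KD, in which PKA is freed, gave values of the same sign as PKA KD for Cry1 and Cry2 from the groups alone, and the 2 experiments were not tested against each other, having separate tables and controls.

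Gcgr KD, Gnas KD and Epac2 KD called 0 members in edgeR, against 7.23%, 15.2% and 4.56% of all genes, with 2918, 3793 and 2255 genes at an unadjusted p under 0.05. The nearest was Per1 with Gnas KD, which ran from 4.05 to 11.8 CPM (median 7.48) against 4.69 to 19 CPM (median 11.7) in Control. Of 10 Gnas KD libraries 1 exceeded the control median, and the change was -0.71 ± 0.26 (unadjusted p = 0.00791, adjusted p = 0.0516). DESeq2 called it (adjusted p = 0.0285), as did edgeR on these 2 groups alone (adjusted p = 0.0448), without the libraries numbered 1 (-0.82, adjusted p = 0.0493) or 8 (-0.75, adjusted p = 0.0444), and at a given Arntl (-0.68 ± 0.19, adjusted p = 0.0111). Limma-voom did not (-0.68, adjusted p = 0.0713).

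For Gcgr KD the smallest unadjusted p was that of Nr1d1, at -0.24 ± 0.17 (p = 0.165), with medians of 142 CPM in Control and 125 CPM in the knockdown. Epac2 KD was closest to a difference in Cry2, at 0.19 ± 0.12 (p = 0.139), with medians of 35.3 and 38.3 CPM. DESeq2 and limma-voom called 0 members for both. Medians of Dbp were 31.5, 29.4, 28.9, 23.3 and 28.7 CPM in Control, Gcgr KD, Gnas KD, PKA KD and Epac2 KD. Neighbours in that order were not called apart by edgeR from the groups alone, with SEs of 0.53 to 0.54. Each group covered at least a 7.64-fold range. The 95% intervals for Dbp, -1.20 to 0.89 with Gcgr KD and -1.13 to 0.96 with Epac2 KD, leave room for changes of about 2-fold. Gnas KD and Gcgr KD set against each other called 0 members in edgeR, DESeq2 and limma-voom (5.84% of all genes, 2366 at an unadjusted p under 0.05).

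The wider clock machinery was read from lists drawn up with earlier results known. Of 12 tested transcription factors and partners outside the 10 members, Prkar1a KD with the Control mAb raised 3 and lowered 6 (75% called, against 56.2% of all genes), with a median of -0.54 against 0.02 over all genes. Bhlhe41, a repressor that competes at E-boxes, fell at -3.41 ± 0.48 (adjusted p = 1.38e-07), and so did Ciart, a repressor of the ARNTL and CLOCK pair, at -2.31 ± 0.67, and Tef at -1.04 ± 0.29. Nfil3 rose by 1.28 ± 0.25 (adjusted p = 4.65e-05), Timeless by 0.59 ± 0.18 and Nono, an RNA-binding partner of PER proteins, by 0.31 ± 0.038. Npas2 stood at 1.14 ± 0.63 (adjusted p = 0.123). With the Gcgr mAb in both arms 4 rose and 5 fell (75%, against 53.1% of all genes), among them Bhlhe41 at -2 ± 0.45 and Nfil3 at 1.07 ± 0.25.

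PKA KD raised 2 of the 12, among them Arntl2 (0.69 ± 0.22, adjusted p = 0.0111), a paralog of Arntl, and lowered Timeless (-0.46 ± 0.16, adjusted p = 0.0248), while 9 of the 12 were not called. The share called, 25%, was below the 32.4% of all genes. Gcgr KD and Epac2 KD called 0 of these 12 (7.23% and 4.56% of all genes), and Gnas KD called Timeless (0.55 ± 0.16) and Nono (-0.22 ± 0.066), 16.7% against 15.2% of all genes. Arntl2 fell with Prkar1a KD and Control mAb (-0.83 ± 0.28), opposite in sign to PKA KD. The difference between experiments was not tested.

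Of 12 kinases, ubiquitin ligases and other enzymes that act on clock proteins, Prkar1a KD with the Control mAb raised 6 and lowered 3 (75%, against 56.2% of all genes), and PKA KD raised 3 and lowered 1 (33.3%, near the 32.4% of all genes). Csnk1d, the casein kinase that phosphorylates PER proteins, rose by 0.32 ± 0.047 with Prkar1a KD (adjusted p = 3.11e-07) and stood at -0.33 ± 0.045 with PKA KD (adjusted p = 3.94e-08). Prkaa2, a catalytic subunit of AMPK, fell with Prkar1a KD (-0.77 ± 0.12). Gcgr KD raised 4 of these 12 (33.3%, against 7.23% of all genes), all by 0.25 or less.

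Of 16 rhythmic liver transcripts, all tested, Prkar1a KD with the Control mAb called 62.5%, near the 56.2% of all genes, and PKA KD called 50%, against 32.4% of all genes. The Prkar1a KD comparison lowered 6, among them Wee1 (-2.18 ± 0.34), Lpin1 (-1.51 ± 0.21), a phosphatidate phosphatase, and Usp2 (-1.19 ± 0.48), and raised 4, among them Avpr1a (1.35 ± 0.29), a vasopressin receptor, and Noct (1.25 ± 0.3), the phosphatase nocturnin. PKA KD lowered 6, led by Elovl3 (-2.02 ± 0.43), a fatty acid elongase, Noct (-1.35 ± 0.36) and Lpin1 (-1.31 ± 0.23), and raised Cys1 (0.75 ± 0.13) and Tspan4 (0.53 ± 0.13). Usp2, the transcript most opposed to Arntl within groups, stood at 0.38 ± 0.5 with PKA KD and was not called.

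Immediate genes of cAMP and CREB, the transcription factor that PKA activates, were counted as a further list. Of 14 tested in experiment 2, Prkar1a KD with the Control mAb raised 10 and lowered 0 (71.4%, against 56.2% of all genes), with a median of 1.45 against 0.02 over all genes, led by Nr4a1 (4.23 ± 0.21), Sik1 (3.26 ± 0.2) and Nr4a3 (2.78 ± 0.38). With the Gcgr mAb in both arms 9 rose and Egr1 fell (-1.56 ± 0.4), 71.4% against 53.1% of all genes. PKA KD raised 1 of 15, Ppargc1a (0.51 ± 0.14), and lowered 3, Nr4a2 (-1.16 ± 0.3), Pde4b (-0.83 ± 0.17) and Crem (-0.46 ± 0.13), with a median of -0.35, and its share called, 26.7%, was below the 32.4% of all genes. Per1 in those comparisons stood at 0.78, 1.09 and -0.49, as given above, with edgeR adjusted p of 0.0641, 0.0108 and 0.146. Only the value of 1.09 passed. The part of this pathway in the Per1 values was not tested.

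Other signals that can reach clock genes were counted the same way for Prkar1a KD with the Control mAb, where 56.2% of all genes were called. Of 10 glucocorticoid response genes, a list that includes Per1, 4 rose and 0 fell (40%, below that share), led by Sgk1 (3.47 ± 0.18) and Tat (2.53 ± 0.13), while Tsc22d3 stood at 0.04 ± 0.24. Of 10 temperature response genes 2 rose (20%, also below it), Hsph1 (0.61 ± 0.19) and Hspa8 (0.50 ± 0.13), and the cold-inducible Cirbp stood at 0.02 ± 0.14. Of 12 feeding and fasting genes 4 rose, led by Igfbp1 (3.04 ± 0.39) and Pck1 (2.55 ± 0.19), and 5 fell (75% called), led by Pnpla3 (-2.99 ± 0.57) and Fasn (-2.41 ± 0.28). With PKA KD 0 of these 12 rose and 5 fell (41.7%, against 32.4% of all genes), among them Fgf21 (-1.97 ± 0.39) and Pnpla3 (-1.90 ± 0.55). The part of these signals in the clock gene values was not tested.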

How the data were processed

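Per the labels' protocols, polyadenylated RNA of liver was made into strand-specific libraries. Per the submitters' processing notes, bcl2fastq 2.17 and FastQC were used, with builds GRCm38 and mm10; the aligner and the counter are not stated in the sources used here. The deposited tables hold expected counts (estimated counts per Entrez gene and sample, 8.69% and 8.55% of entries not whole), made by the authors and rounded here before testing. Symbols came from RefSeq (24375 of 24475 matched). All columns were used, and groups came from the labels. No pair of libraries in a group agreed within sampling noise.

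Each experiment was fitted over all its groups in edgeR 4.0.16 (R 4.3.3): filterByExpr, TMM, robust quasi-likelihood F test, Benjamini-Hochberg adjustment. Log2 CPM used a prior count of 2. Alternatives were RLE scaling, no filter, DESeq2 1.42.0, limma-voom 3.58.1, fits of the compared groups alone, a replicate block and leaving out each replicate number; the Arntl and Dbp covariates and the omission of 3 libraries were added after seeing the data. The fit was tested on simulated data before use. For PKA KD against Control it recovered 70.1% of 1.5-fold, 85.1% of 2-fold and 100% of 4-fold changes. For Prkar1a KD with the Control mAb these were 84.6%, 88.1% and 96.9%. Of the calls, 3.98% and 2.75% were false. Members and gene lists were chosen with earlier results of these data known. The text names all 10 members, up to 3 called genes per list, direction and comparison, with a few uncalled genes, Csnk1d and Prkaa2 singled out after their values were seen, and the 5 genes most like and most opposed to Arntl with a mean log2 CPM of at least 1. Some genes of the lists are counted but not reported here by name.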

Additional observations from a re-analysis of the deposited data

Results flagged for a closer look

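Each member was screened in each group of 10 for a library that lies apart from the rest on the log2 CPM scale (90 gene and group pairs, the gap to the next library over the group's range being above Dixon's 95% critical value). Chance alone marks about 1 in 20 such groups, and 7 of 90 were marked here, each for its lowest library.

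In the experiment 1 Control group, replicate 5 was lowest for Arntl, at 3.85 CPM with the next library at 8.17 CPM, and for Clock, at 20 CPM with the next at 27.8 CPM. Nr1d1 was lowest in Control replicate 3, at 93.8 CPM with the next at 137 CPM. In Epac2 KD, replicate 2 was lowest for Dbp, at 2.43 CPM with the next at 15.6 CPM, and for Nr1d2, at 18.8 CPM with the next at 28.9 CPM. Clock in Epac2 KD was lowest in replicate 4, at 24 CPM with the next at 30.5 CPM. In Control AAV + Gcgr mAb, replicate 2 was lowest for Per2, at 11.2 CPM with the next at 24.1 CPM, and it is the library that lay farthest along the first principal component of experiment 2. No member differed between the antibody arms in its response to Prkar1a KD by the interaction test.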

How the results depend on the processing

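Counts of called members changed by more than 1.5 times as follows, and the cause was not tested. For PKA KD against Gcgr KD (2) the count was 1 with no filter and 4 with Arntl as covariate. For Gnas KD against Control (0) it was 1 with DESeq2, with only the groups compared and with either covariate. For PKA KD against Gnas KD (1) it was 2 with DESeq2, limma-voom, the replicate block or Dbp as covariate and 3 with Arntl. For PKA KD against Epac2 KD (3) it was 1 with only the groups compared, 5 with Arntl and 6 with Dbp. For PKA KD against Control (2) it was 4 with Arntl and 5 with Dbp, for Prkar1a KD with the Control mAb (8) it was 3 with either, and for both treatments against neither (2) it was 4 with DESeq2 or Dbp. Leaving out 1 replicate number at a time gave 0 to 1 for Gnas KD, 2 to 4 for PKA KD against Control, 1 to 2 against Gcgr KD, 1 to 2 against Gnas KD and 1 to 4 against Epac2 KD.

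Some signs turned, again with the cause not tested. Of 126 member values, 3 called and 27 uncalled ones turned with Arntl as covariate, and as many with Dbp. Only some of them are named here. With Arntl and with Dbp as covariate, Prkar1a KD with the Control mAb gave -0.14 and -0.22 for Cry1, 0.09 and 0.17 for Cry2, -0.09 and -0.03 for Clock and 0.50 and 0.58 for Nr1d2. With the Gcgr mAb it gave -0.49 and -0.28 for Cry1, 0.31 and 0.22 for Cry2 and, with Arntl, 0.46 for Dbp. PKA KD against Epac2 KD gave 0.49 and 0.03 for Per3 and, with Arntl, 0.57 for Dbp. Against Control it gave 0.35 and 0.15 for Per3 and, with Arntl, 0.25 for Dbp. Cry2 with both treatments against neither was -0.01 without the 3 libraries that stand apart. Over the omissions of 1 replicate number, Per3 in PKA KD against Epac2 KD ran from -0.38 to 0.20, Cry2 with both treatments against neither from -0.04 to 0.11, Cry2 in Prkar1a KD with the Gcgr mAb from -0.12 to 0.02 and Nr1d2 in Prkar1a KD with the Control mAb from -0.14 to 0.09.

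Of 1400 member values from omitting a replicate number, 1272 kept their sign and side of the threshold, 23 lost a call, 18 gained one and 87 uncalled values turned sign. With RLE scaling 139 of 140 were kept. Libraries of different groups with the same replicate number had a mean r of deviations of 0.0247 over 100 pairs (-0.389 to 0.568) in experiment 1. In experiment 2 it was 0.0213 over 60 pairs (-0.315 to 0.4). Means for unlike numbers were -0.00221 and -0.00173. A mean r over all genes cannot show whether replicate numbers pair the libraries, and this was not tested. The replicate block gave 3 called members for PKA KD, 4 against Epac2 KD, 9 for Prkar1a KD with the Control mAb and 3 for both treatments against neither. Over all genes, the Gcgr mAb in Control AAV called 1052, or 608 with only the groups compared. The low depth of experiment 2, where Dbp fell to 11 counts, limits the lowest values.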
